A study of Mus musculus with 3 samples.

Results

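The barcodes described here are the mid-depth acinar barcodes of the mouse lacrimal gland (LG) whose RNA held little mitochondrial transcript. Acinar cells make up the bulk of the LG epithelium and release the proteins of the aqueous tear film by regulated exocytosis. Their mRNA is dominated by a small number of secreted products, among them secretoglobins, odorant-binding proteins and exocrine gland-secreted peptides, many of which differ between the sexes in rodents. Mitochondrial mRNA and the nuclear RNA *Malat1* are held in organelles, and a high mitochondrial share is often read as a mark of a damaged cell that has lost cytoplasmic RNA, while a very low share can come from droplets without a whole cell.

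The data came from 3 single-cell RNA-seq (scRNAseq) libraries of unmodified C57BL/6J mice aged 2 months, 1 female and 2 male, each prepared from the 6 LGs of 3 pooled animals. The female library was run at one sequencing core and both male libraries at another core on a different day, so that a difference between the sexes cannot be told apart from one between cores or days and was not tested. Each library is 1 pool, and the p-values below rest on 3 pools only. The test shares its estimate of spread over all genes. A very small p-value therefore does not measure the spread of that gene among the pools alone. Cells had been enzymatically dissociated and passed over a dead cell removal column before capture.

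A barcode was a member if it had more than 200 genes, if at least 75% of its unique molecular identifiers (UMIs, 1 per captured mRNA) fell on tear products, if it held 2500 to under 20000 UMIs and if under 2% of them were mitochondrial. *Car6* had to stay under 5000 per 1000000 UMIs, and *Fcgbp*, *Sftpd*, *F5* and *Ccl9* together could give at most 1 UMI. These limits were met by 1125 of 23058 called barcodes: 69 of 9737 (female library), 201 of 6422 (male library 1) and 855 of 6899 (male library 2). They held 572514, 2152610 and 7482941 UMIs in these libraries, and no member barcode was shared between 2 libraries. They are called low-mt barcodes here. The barcodes that met the same limits with 2 to under 15% mitochondrial UMIs (high-mt, 5, 312 and 253 barcodes) and those with 20000 UMIs or more and under 2% (RNA-rich, 253, 483 and 628 barcodes) served for comparison.

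The members were chosen by their measured depth, tear share, mitochondrial share and marker UMIs, and these values are given as a description. The median depth of low-mt barcodes was 7199 UMIs (female), 11560 (male 1) and 7588 (male 2). The median tear share was 77.0%, 82.2% and 85.5%, and the median mitochondrial share was 0.181%, 1.27% and 0.346%. Under 0.5% mitochondrial UMIs lay 48 of 69 low-mt barcodes in the female library (69.6%), 44 of 201 in male library 1 (21.9%) and 544 of 855 in male library 2 (63.6%). The mitochondrial and tear limits did not lie in a gap. Between 1.5% and 2% mitochondrial UMIs there were 5, 69 and 71 barcodes, and between 2% and 2.5%, just outside, 1, 65 and 57. Just under the tear limit, at 70 to 75%, lay 49, 40 and 54 barcodes that met every other limit, and 59, 39 and 131 lay at 75 to 80%.

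The label of acinar cells was checked against its markers and against free RNA. *Lpo* (lactoperoxidase), *Agr2* and *Sec61g* were taken as markers of these cells. *Agr2* encodes a disulfide isomerase of the secretory pathway. *Sec61g* encodes a subunit of the translocon that passes new proteins into the endoplasmic reticulum. Barcodes of another cell type gave the background. After each barcode was thinned to 2500 UMIs, *Lpo* was found in 63.8% (female), 67.7% (male 1) and 61.3% (male 2) of low-mt barcodes. *Lpo* is itself one of the tear products of the rule. In barcodes rich in collagen RNA (10 or more UMIs over *Col1a1*, *Col1a2*, *Col3a1*, *Dcn* and *Lum*, a tear share under 75% and no UMI of *Epcam*, *Ptprc* or *Pecam1*), which should lack it, the share was 25.2%, 57.1% and 51.4%, with median depths of 3493, 2909 and 3404 UMIs before thinning. *Agr2* was found in 58.0%, 65.2% and 63.0% of low-mt barcodes and in 25.2%, 57.1% and 62.9% of collagen-rich ones. *Sec61g* was found in 29.0%, 28.9% and 30.4% and was more frequent in collagen-rich barcodes (53.9%, 55.4% and 45.7%). It was therefore not found in more low-mt barcodes than in this background. Low-mt barcodes held at least 75% tear products and collagen-rich ones less. Of the 2500 thinned UMIs fewer were thus left for other genes in low-mt barcodes. This lowers their shares for *Sec61g*, *Agr2* and the genes of the next paragraph, by an amount that was not tested. As collagen-rich barcodes had to stay under the tear limit, a higher *Lpo* share in low-mt barcodes follows in part from the choice and was not used to check the label. For *Agr2* the 95% Wilson intervals were apart in the female library and overlapped in both male libraries. There were 1244 collagen-rich barcodes in the female library and only 56 and 35 in the male libraries, which widens the male intervals.

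The acinar water channel *Aqp5* stood further from that background. It was found in 20.3%, 25.9% and 15.1% of thinned low-mt barcodes, against 3.78%, 12.5% and 5.71% of collagen-rich barcodes. *Pigr*, the receptor that carries IgA into tears, was found in 27.5%, 18.9% and 13.0% against 8.04%, 8.93% and 5.71%. The acinar membrane protein gene *Prom2* was found in 2.90%, 14.4% and 12.2% against 1.85%, 5.36% and 5.71%. *Bhlha15*, a transcription factor of mature secretory cells, was found in 10.1%, 7.46% and 8.89% against 3.14%, 8.93% and 2.86%, a lower share in low-mt than in collagen-rich barcodes of male library 1. The intervals of *Prom2* overlapped in every library, and those of *Aqp5*, *Pigr* and *Bhlha15* were apart in the female library alone. With 56 and 35 collagen-rich barcodes in the male libraries, an overlap there does not show that the shares were alike.

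Barcodes that the authors' software had not called as cells carried the same kind of RNA. In the 3 libraries 66331, 58397 and 55569 uncalled barcodes of 500 to under 2000 UMIs held 46.7%, 53.3% and 43.6% of all UMIs. Their RNA was 75.9%, 85.8% and 85.5% tear products and 0.300%, 0.0983% and 0.137% mitochondrial. A further 2735, 1386 and 1877 uncalled barcodes met every limit of the rule except the call itself, more than the called members in each library. Because the data leave in doubt how many low-mt barcodes were whole acinar cells, they are named by their rule.

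The leading tear product of low-mt barcodes was *Mucl2* in the female library and *Gm1553* in both male libraries. *Mucl2*, a mucin-like secreted protein, took 22.2% of all UMIs (female), 10.1% (male 1) and 11.4% (male 2). *Obp1a*, an odorant-binding lipocalin, took 15.7%, 11.2% and 11.0%. *Gm1553* took 6.79%, 14.2% and 15.4%, and was the only one of these 3 that was higher in both male libraries. The 20 most abundant products together averaged 81.2% of all UMIs over the libraries, and 58 of the 90 tear genes in the table had at least 1 UMI in low-mt barcodes.

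Secretoglobins, small secreted proteins of which many are androgen-binding proteins, were the largest family with 34.3% ± 10.5 of UMIs (SD, n = 3 libraries). They gave 22.2% in the female library and 40.1% and 40.7% in the male libraries. *Scgb2b2* took 7.80%, 10.3% and 10.6%, and *Scgb1b2* took 7.45%, 8.42% and 8.86%. *Scgb2b24* followed with 4.23%, 7.14% and 6.77%. *Scgb1b20*, *Scgb2b20*, *Scgb1b7* and *Scgb2b7* took 0.42% to 0.87% in the female library and 2.70% to 4.10% in the male ones. These families hold near-identical copies, between which reads cannot always be assigned, so the level of a single copy is uncertain.

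The spread over single barcodes differed between products. Between the 10th and the 90th percentile of low-mt barcodes, the *Mucl2* share ran from 18.9% to 25.3% in the female library, from 6.43% to 13.2% in male library 1 and from 7.89% to 13.7% in male library 2. *Gm1553* ran from 4.88% to 8.65%, 10.3% to 18.2% and 12.0% to 18.2%. Less abundant products spread more widely relative to their level in the female library, where *Scgb1b20* ran from 0.17% to 1.66% around a median of 0.82% and *Scgb2b7* from 0.025% to 1.00% around 0.36%.

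The leading product of each library was the same in its uncalled and RNA-rich barcodes. *Mucl2* took 22.9%, 13.7% and 14.1% in uncalled and 21.4%, 11.7% and 11.5% in RNA-rich barcodes. *Obp1a* took 14.4%, 10.7% and 11.0% and 14.7%, 11.5% and 11.0%, and *Gm1553* 7.59%, 16.7% and 16.3% and 7.997%, 15.5% and 14.7%. In high-mt barcodes *Gm1553* took 5.52%, 11.0% and 11.1%, below the low-mt and the uncalled barcodes in each library. *Lpo* had the opposite order, with 0.118%, 0.114% and 0.110% of UMIs in high-mt, 0.0372%, 0.0764% and 0.0465% in low-mt and 0.0261%, 0.0283% and 0.0299% in uncalled barcodes. *Lpo* was thus higher in high-mt than in low-mt barcodes of every library. As tear share was part of the rule, no test was made of these genes.

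**Figure D1:**
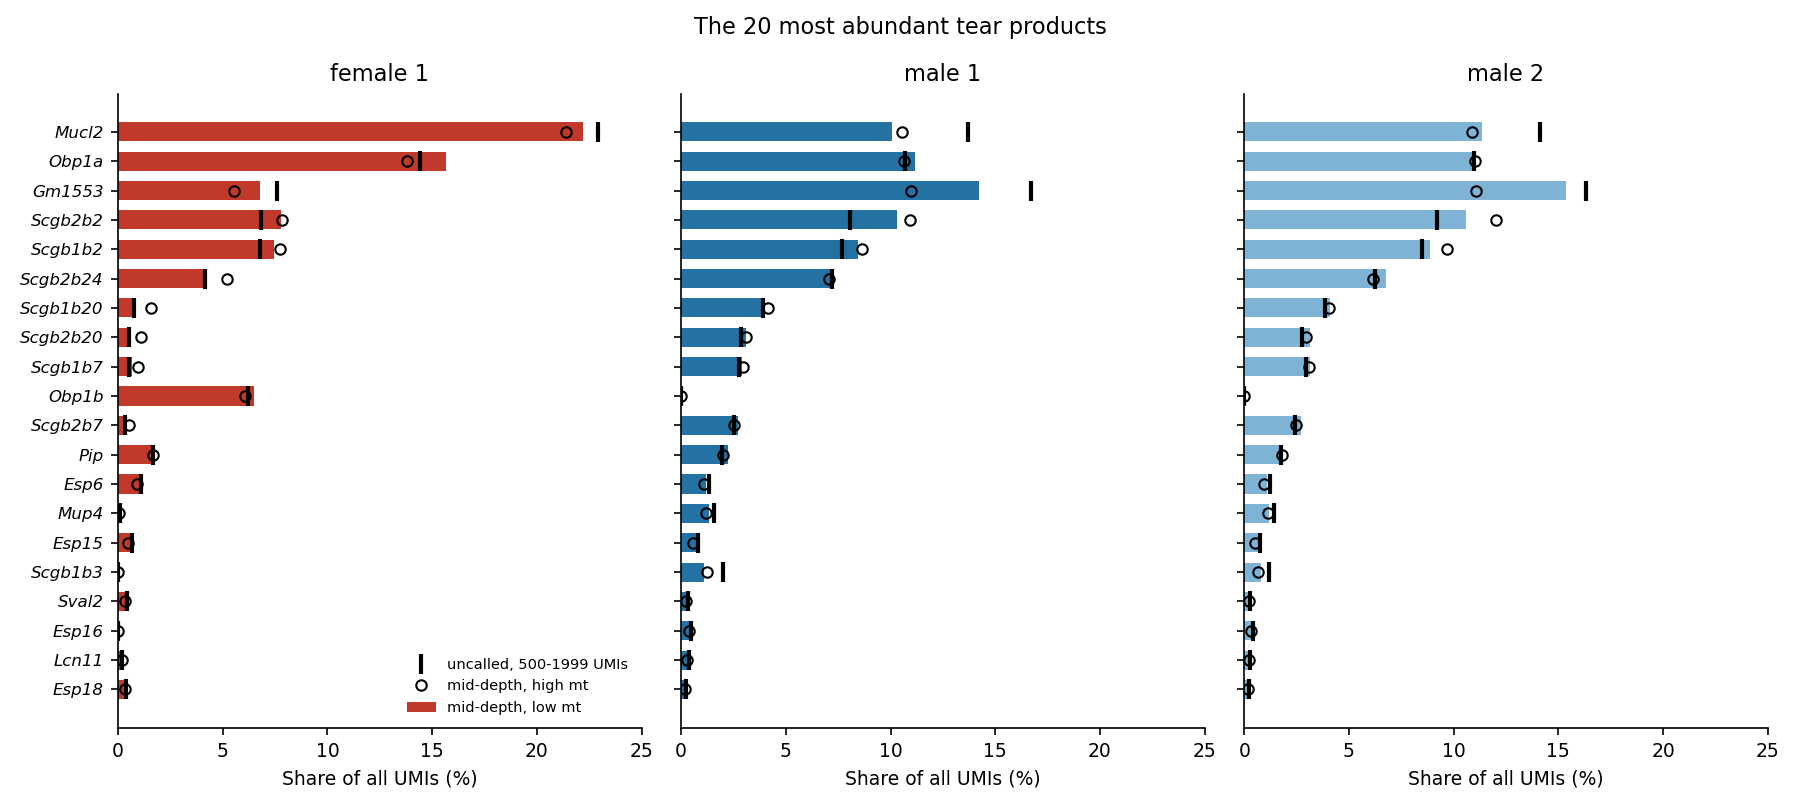
Share of all UMIs (x axis, %) of the 20 most abundant tear products in low-mt barcodes (bars), high-mt barcodes (open circles) and uncalled barcodes of 500 to under 2000 UMIs (black ticks), 1 panel for each library. The female library is set apart by *Mucl2* at 22.2% and *Obp1b* at 6.49%, and *Gm1553* is higher in low-mt than in high-mt barcodes in each panel.

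The female library was next set beside the male libraries, as a description with no test. Among 1198 genes with enough UMIs in low-mt barcodes, 23 were over 2-fold above both male libraries and 154 were over 2-fold below both. The limit was set in UMIs. Low-mt barcodes held 572514 UMIs in the female library and 2152610 and 7482941 in the male libraries. A gene higher in the male libraries could therefore pass at a lower level than one higher in the female library. The counts of 23 and 154 thus depend on depth and do not show a skew towards the male libraries. *Obp1b*, a second odorant-binding protein, had 64865 UMIs per 1000000 of all UMIs in the female library and 84.1 and 84.1 in the male libraries. *Gm14743* had 40733 against 522 and 336, and *Phyh*, a peroxisomal enzyme of fatty acid oxidation, had 784 against 73.4 and 92.9. On the male side stood *Scgb1b3* with 10918 and 8091 against 8.73, *Esp16* with 4474 and 4455 against 15.7, and *Mup4*, a major urinary protein, with 13106 and 11923 against 320. *2310057J18Rik* had 3889 and 3137 against 99.6, and *Wfdc12*, an antiprotease with a WAP domain, had 4716 and 3857 against 175. *Scgb2b12*, *Scgb2b3*, *Gm43974*, *Esp24* and *Ly6f* had 0 UMIs in the female library. With 3 UMIs taken as the floor of each library, *Scgb2b12* was at least 390-fold higher in the nearer male library and *Ly6f* at least 22.9-fold. *Xist* gave 10 UMIs in the female low-mt barcodes and 0 and 1 in the male ones, and *Ddx3y* 0, 12 and 24.

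Among the genes of largest ratio on the female side, some had next to no UMI in the male libraries. *Bpifa2*, the parotid secretory protein, gave 1152 UMIs in female low-mt barcodes and 0 in both male libraries, so that it was at least 1444-fold higher there than the floor of the nearer male library. *Smr3a* gave 585, 0 and 0 UMIs, *Chia1* 42, 0 and 0, *BC037156* 57, 0 and 0, and salivary amylase *Amy1* 150, 1 and 2. Pancreatic lipase-related *Pnliprp1* gave 245, 0 and 0. Per 1000000 UMIs of genes outside the rule (CPM below), *Bpifa2* stood at 9325 in low-mt, 6907 in high-mt, 810 in RNA-rich and 41508 in uncalled barcodes of the female library. *Smr3a* stood at 4735, 3585, 411 and 20174. Both genes were thus highest in uncalled, intermediate in mid-depth and lowest in RNA-rich barcodes. *Pnliprp1* differed less between groups, with 428 per 1000000 of all UMIs in low-mt, 417 in RNA-rich and 603 in uncalled barcodes.

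The comparison with high-mt barcodes asked what else differed within the same windows of depth and tear share once mitochondrial genes were left out. Within these windows the groups were not matched: the median depth of high-mt barcodes was 14800, 7464.5 and 7310 UMIs and their median tear share 76.0%, 78.4% and 79.6%. Of 77 genes tested for nuclear-encoded subunits of the respiratory chain and ATP synthase, 22 were called higher in low-mt barcodes and the other 55 were not called (edgeR quasi-likelihood test, adjusted p under 0.05). Over all 3838 genes tested 5.05% were called higher and 1.38% lower. *Atp5e*, the epsilon subunit of ATP synthase, had 364 CPM (female), 383 (male 1) and 575 (male 2) in low-mt barcodes and 175, 203 and 245 in high-mt barcodes. The groups did not overlap, and the log2 fold change was 1.52 ± 0.35 (SE, n = 3 libraries, edgeR adjusted p = 0.0008). *Uqcrq* of complex III had 332, 481 and 549 CPM against 0, 302 and 347, a log2 fold change of 1.20 ± 0.36 (edgeR adjusted p = 0.023). *Atp5h* (1.16), *Cox7a2* (1.14) and *Atp5l* (1.11) were higher in all 3 libraries as well.

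The other called genes of the largest changes with 30 or more UMIs in every library, both groups summed, were *Gm12886* (log2 fold change 1.53), the ribosomal protein genes *Rps28* (1.44) and *Rps27* (1.40), the myosin light chain *Myl6* (1.35) and the dynein light chain *Dynll1* (1.20). *Rps27* had 534, 751 and 970 CPM against 175, 469 and 496. Of 81 ribosomal protein genes 2 were called and 79 were not, although the median of the list was 1.14. The count was 43 of 81 with DESeq2, 64 of 81 without the female library, whose high-mt group holds 5 barcodes, and 57 of 80 with high-mt barcodes from 5%, and both calls were lost when either male library was left out. The respiratory chain list had a median of 0.80. Outside both lists, genes of 100 to 1000 CPM had a median log2 fold change of 0.37 and those above 1000 CPM 0.80. The respiratory chain genes named above lay at 100 to 1000 CPM. The median of all genes was 0.05. The log2 fold change therefore rose with expression level, and 11.1% of genes of 100 to 1000 CPM outside both lists were called higher. When total UMIs replaced TMM scaling the median of all genes moved to -0.36, that of the respiratory chain list to 0.36 with 13 of 77 higher and 3 lower, and that of ribosomal proteins to 0.45 with 48 of 81 higher.

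Nuclear-retained RNAs had lower values in low-mt barcodes, but few passed the test. *Malat1* had 2623, 11765 and 4205 CPM in low-mt barcodes and 16874, 22564 and 14260 in high-mt barcodes. It was lower in each library, the groups did not overlap, and the log2 fold change was -1.01 ± 0.66 (edgeR adjusted p = 0.34). Within the list of nuclear-retained RNAs and splicing genes, 2 of 22 were called lower, the imprinted antisense RNA *Kcnq1ot1* (log2 fold change -1.01) and the splicing factor *Luc7l2* (-0.89). The list median was -0.64. The count ran from 0 of 22 without male library 2 or without the filter on low counts, and 1 of 22 with DESeq2 or without barcodes holding other cell types' markers, to 12 of 22 without the female library and 16 of 22 with total UMIs, where the median of all genes was -0.36.

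Of the acinar identity genes, *Prom2* had 65, 486 and 380 CPM in low-mt barcodes against 175, 854 and 1027 (log2 fold change -0.72 ± 0.41, edgeR adjusted p = 0.27). *Agr2* had 1611, 2938 and 3010 CPM against 1923, 2385 and 2416, higher in both male libraries and lower in the female one. *Sec61g* had 623, 742 and 1002 CPM against 612, 452 and 607, and its log2 fold change of 1.18 ± 0.44 was not called (edgeR adjusted p = 0.073). *Bhlha15* had 130, 368 and 305 CPM against 175, 487 and 563 and was not called either. Among 23 genes of translocation and signal peptide removal, *Spcs1*, a signal peptidase subunit, and *Srp19*, of the signal recognition particle, were called higher (log2 fold changes of 1.02 and 1.07). That is 2 of 23, beside 5.05% of all genes, and both calls were lost when either male library was left out. *Srp19* was lower in the female library, with 130 CPM against 175. The calcium release channel *Itpr3* and the potassium channel *Kcnma1* were called lower (-1.77 and -1.73), from 8, 6 and 13 CPM against 0, 48 and 53 for *Itpr3*, which was not lower in the female library.

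**Figure D2:**
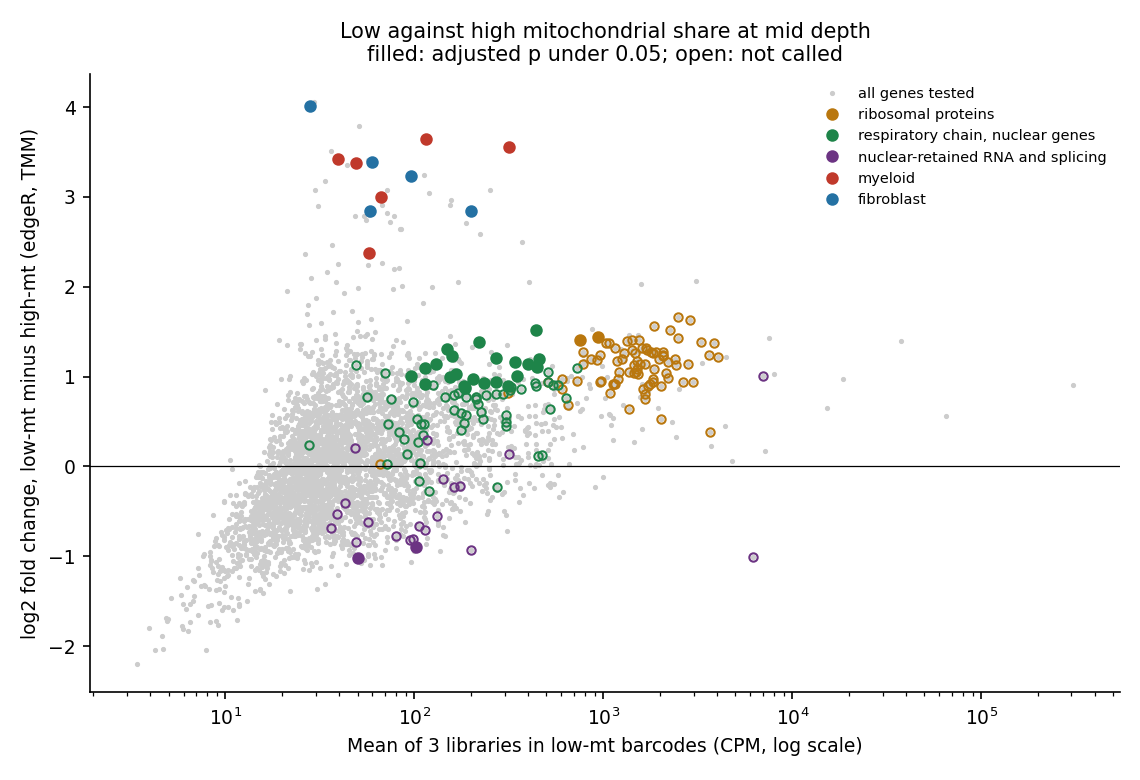
Log2 fold change of low-mt over high-mt barcodes (y axis, edgeR with TMM scaling) against the mean level in low-mt barcodes (x axis, CPM, log scale) for the 3838 genes tested. Filled symbols passed an adjusted p of 0.05: 22 respiratory chain genes near 1, and myeloid and fibroblast markers above 2, stand above the zero line, and most nuclear-retained RNAs lie under it.

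Markers of other cell types were among the largest changes in this comparison. Of 7 fibroblast and 8 myeloid markers, 5 and 6 passed the filter on low counts. All of these were called higher, with list medians of 3.23 and 3.40. High-mt barcodes held 0, 26 and 50 UMIs of the fibroblast and 0, 28 and 53 of the myeloid list. The filter was thus passed mainly through low-mt barcodes, and a count of all those tested says little. Without the filter 5 of 7 and 7 of 8 were called. DESeq2 gave medians of 3.02 and 3.23, but called 1 of the 6 myeloid markers, and the 5 fibroblast calls were lost. *Cd74*, the invariant chain of MHC class II, had 73, 262 and 611 CPM in low-mt barcodes against 0, 32 and 61 (log2 fold change 3.55 ± 0.37, edgeR adjusted p = 1.37e-17). *Col3a1* had 32, 109 and 144 CPM against 0, 16 and 18. *C1qa*, a complement subunit of macrophages, had 49, 49 and 103 CPM against 0, 7 and 18. The 5 female high-mt barcodes held 11438 UMIs outside the rule, where 3 UMIs stand for 262 CPM, so that a 0 there limits little. Over the 42 markers of duct, myoepithelial, fibroblast, endothelial, mural, myeloid and lymphoid cells, the summed level was 575, 1272 and 2577 CPM in low-mt, 0, 272 and 400 in high-mt, 252, 170 and 284 in RNA-rich and 736, 542 and 554 in uncalled barcodes. Of these 42 markers 16, 8 and 2 were at 0 in the low-mt barcodes of the 3 libraries, and the 4 haemoglobin genes listed for erythroid cells were at 0 in all.

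These markers sat in a minority of barcodes. Of the low-mt barcodes 207 of 1125 (18.4%) held 3 or more UMIs of the 42 markers: 11.6% in the female library (95% Wilson interval 5.99 to 21.2), 15.9% in male library 1 (11.5 to 21.6) and 19.5% in male library 2 (17.0 to 22.3). Among high-mt barcodes the share was 3.21% (1.75 to 5.80) and 1.98% (0.847 to 4.54) in the male libraries. Among RNA-rich barcodes it was 19.4% (15.0 to 24.7) in the female library and 6.21% (4.39 to 8.73) and 9.24% (7.21 to 11.8) in the male libraries, at median depths of 64617, 45898 and 37375 UMIs, where 3 UMIs are more easily reached. After barcodes with such markers were left out of both groups, 59 genes were called higher in place of 194, and 13 of 77 respiratory chain genes were called higher with a list median of 0.74. The part of those barcodes in the other calls was not tested further.

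The 22 respiratory chain calls rested on both male libraries. They came to 43 of 78 without the female library, and all 22 calls were lost when either male library was left out, where 21 (without male library 1) and 2 (without male library 2) genes of any kind were called higher. DESeq2 called 7 of 77. With cells thinned to 2500 UMIs 7 of 69 were called and the list median was 0.45, and between 5000 and 10000 UMIs, where the female library has no high-mt barcode, 6 of 74 were called with a median of 0.62. The list median was 0.65 when the female library was left out, and 1.00 and 0.74 when male library 1 or 2 was.

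The comparison with RNA-rich barcodes asked how low-mt barcodes differed from barcodes that were also under 2% mitochondrial but held 20000 UMIs or more. The median mitochondrial share of RNA-rich barcodes was 0.302%, 0.533% and 0.473%, in male library 1 below that of low-mt barcodes. Markers of several other cell types were called higher again: of 8369 genes 3.61% were called higher and 0.442% lower. The higher ones included 7 of 7 fibroblast, 7 of 8 myeloid, 5 of 5 myoepithelial, 4 of 5 duct, 3 of 5 endothelial and 3 of 3 lymphoid markers tested, where the duct and myoepithelial lists share *Krt5* and *Krt14*. The list medians were 2.34, 2.56, 2.86, 2.86, 2.72 and 2.90 in this order. Only 3 of 7 lymphoid and 5 of 6 endothelial markers passed the filter on low counts. Fibroblast calls were 4 of 7 with DESeq2, 5 of 7 without that filter and 2 of 6 without the replicate block. Myeloid calls were 7 of 8, 7 of 8 and 6 of 7 there. At a tear share of 85% or more, which leaves out the female library, 0 of 4 fibroblast markers were called (median -0.17). Of myeloid markers, 0 of 2 were called (median -0.49). Among genes with 30 or more UMIs in every library, both groups summed, and one direction in 3 of 3 libraries, the 10 of largest change were *Igfbp7*, *Tmsb10*, *Tyrobp*, *C1qa*, *C1qb*, *Tmem176a*, *Cst3*, *Col3a1*, *Ifitm2* and *Cd74*, with log2 fold changes of 2.94 down to 2.31. *Igfbp7*, a secreted protein of vessels and stroma, had 40, 60 and 113 CPM in low-mt against 14, 7 and 7 in RNA-rich barcodes. Without the low-mt barcodes that held 3 or more marker UMIs the number called higher fell from 302 to 21, and *Cd74* and *Col3a1* turned lower than in RNA-rich barcodes (-1.48 and -2.37). Levels of these genes in the remaining barcodes were fixed in part by that choice.

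*Gm42418*, a gene model that lies over ribosomal RNA repeat sequence, was higher in low-mt barcodes at 12587, 3989 and 4400 CPM against 1021, 1151 and 1218 (log2 fold change 2.07 ± 0.19, edgeR adjusted p = 3.62e-24). *Malat1* had 2623, 11765 and 4205 CPM against 2608, 3357 and 2389, about equal in the female library and higher in both male ones (0.56 ± 0.19, edgeR adjusted p = 0.061). Immediate early and stress genes, which respond within minutes to dissociation and other stimuli, were called higher in 8 of 23 cases, in 4 of 23 with DESeq2, in 2 of 23 without male library 2 or without the replicate block, and in 5 of 23 without male library 1 or without high doublet scores. At a tear share of 85% or more, which leaves out the female library, the list median was -0.18, and with total UMIs 19 of 23 were called. *Egr1* had 73, 106 and 155 CPM against 34, 31 and 33 (1.58 ± 0.23, edgeR adjusted p = 5.38e-10), and *Fosb* had 32, 101 and 104 against 12, 20 and 44. *Zfp36*, which destabilises mRNAs, was among them (0.84). Without the barcodes that held other cell types' markers all 8 calls were lost, and the list median fell from 0.50 to 0.25. *Bpifa2* and *Smr3a* were called higher (3.03 and 3.03), on the female library alone, and so was *Wfdc18* (0.86), higher in all 3 libraries, with 526, 607 and 1936 CPM against 227, 449 and 542.

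Fewer genes were lower than in RNA-rich barcodes, and their changes were small. *Sec61g* had 623, 742 and 1002 CPM against 656, 1021 and 1166 (log2 fold change -0.59 ± 0.17, edgeR adjusted p = 0.019). *Spcs1* (-0.68) and *Ssr4*, a translocon-associated protein (-0.54), were lower with it, so that 3 of 24 translocation genes were called, beside 0.442% of all genes. These calls were lost with DESeq2, with total UMIs, with cells thinned to 2500 UMIs, without the replicate block, without barcodes holding other cell types' markers, at a tear share of 85% or more, and without the female library or male library 1. *Gm14135* is a long noncoding RNA outside the rule. It had 46099, 28033 and 38399 CPM against 57594, 49951 and 56473 (-0.91 ± 0.22, edgeR adjusted p = 0.002). The oligosaccharyltransferase subunit *Tmem258* (-0.73), the autophagy genes *Gabarap* (-0.75) and *Atg5* (-0.89) and the mitochondrial import gene *Dnajc19* (-0.88) were lower in each library. *Zc3h14* (-1.07), *Mea1* (-0.89), *Ginm1* (-0.79), *Krcc1* (-0.76) and *Pnkd* (-0.74) completed the 10. Total UMIs in place of TMM moved the median of all genes from -0.03 to 0.24 and left 2 lower calls of 37, with 430 higher.

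**Figure D3:**
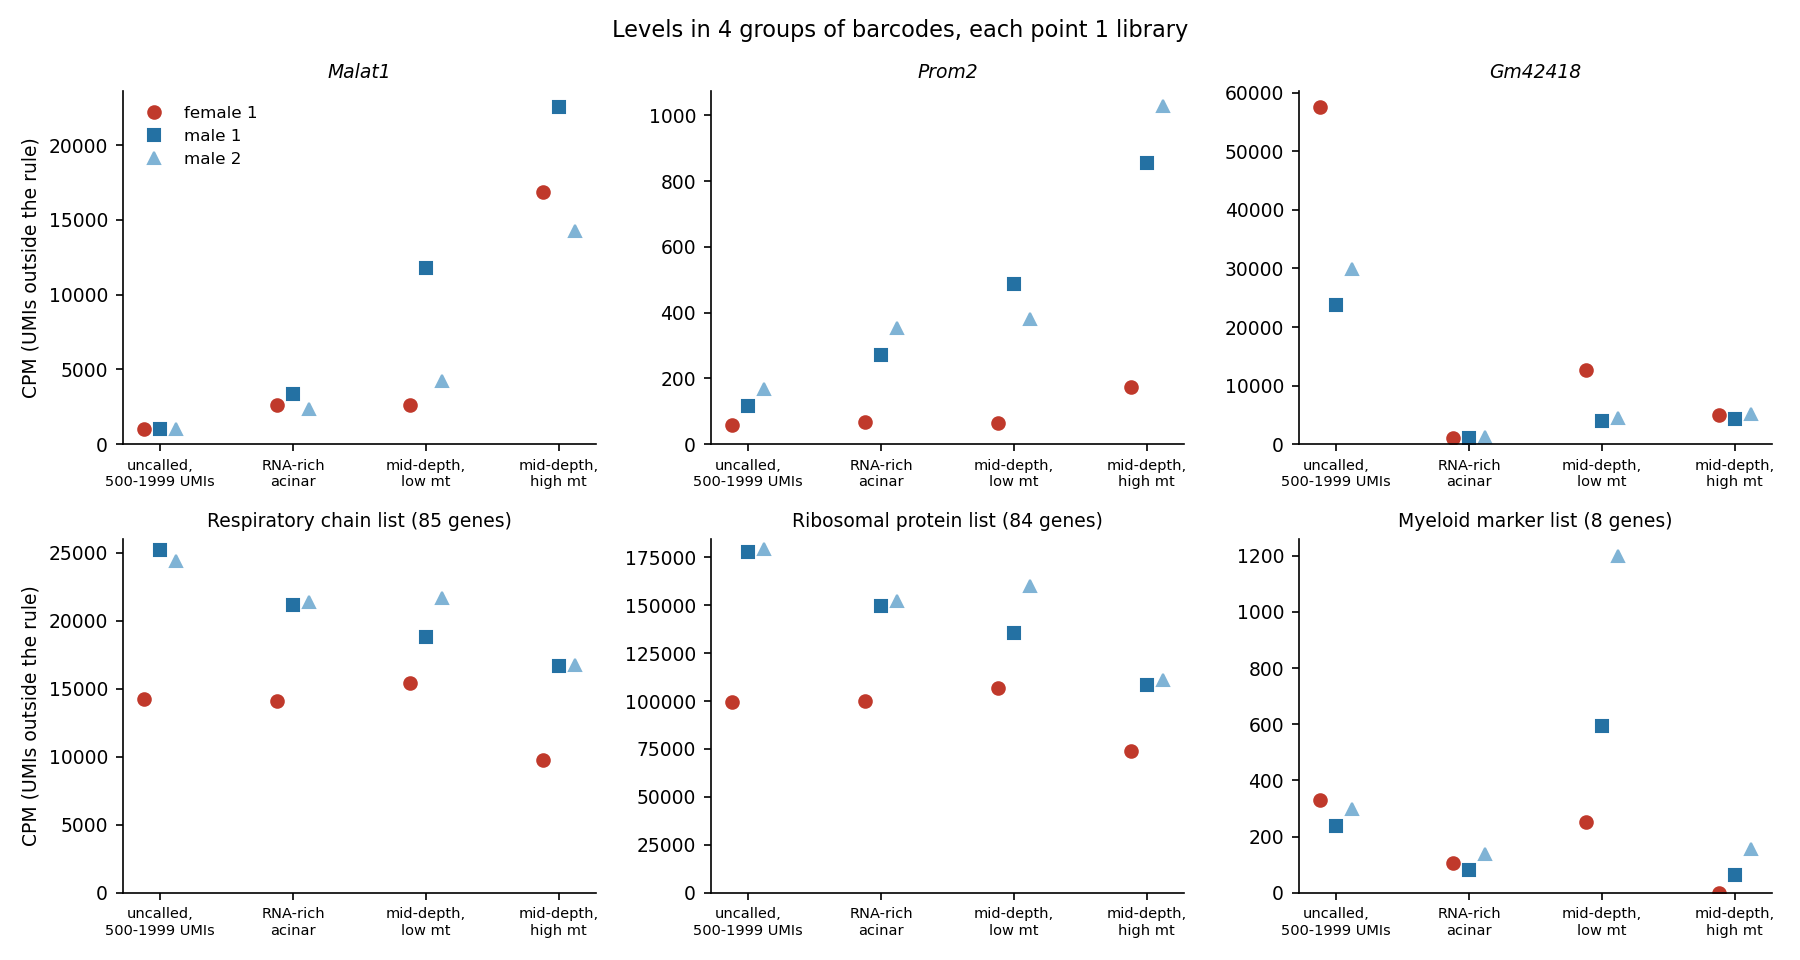
CPM over genes outside the rule (y axes) in uncalled barcodes of 500 to under 2000 UMIs, RNA-rich, low-mt and high-mt barcodes, each point 1 library, for 3 genes and 3 summed gene lists. *Malat1* is near 1000 CPM in uncalled barcodes of each library and highest in high-mt barcodes, *Gm42418* is highest in uncalled barcodes, and the myeloid markers of both male libraries peak in low-mt barcodes.

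The last comparison set low-mt barcodes against free RNA. Uncalled barcodes of 10 to 100 UMIs were the first measure of it, but they held only 0.0440%, 0.198% and 0.169% of the UMIs of the libraries and were 1.22%, 1.45% and 1.55% mitochondrial. Of 1008 genes tested against them 1.29% were called higher and 5.26% lower. *Agr2* had 1611, 2938 and 3010 CPM in low-mt barcodes against 998, 1798 and 1539 (log2 fold change 1.00 ± 0.24, edgeR adjusted p = 0.027). The 10 largest higher calls were not filled. The 8 that qualified included *Gm8978* (1.84), the elongation factor *Eef1g* (1.60), *Lipo1* (1.36), *9530002B09Rik* (1.32), *Wfdc12* (1.26), the endoplasmic reticulum stress protein *Manf* (1.23) and *Lcmt1* (1.04). *Bhlha15* was also called higher (1.44). Lower were *Wfdc18* (-2.67), *Apoe* (-2.40), *Dcn* (-1.97), *Cd74* (-1.85), *Cst3* (-1.77), *Ccl4* (-1.68), *Gm42418* (-1.53), *Lars2* (-1.35), *Fos* (-1.35) and *Tmsb4x* (-1.12), the 10 of largest change with 30 or more UMIs in every library. Below that depth in the female library, all 4 plasma cell markers tested, *Jchain*, *Igkc*, *Igha* and *Ighm*, were called lower, with a list median of -9.11. The list summed to 48.6, 5.76 and 8.97 CPM in low-mt barcodes and to 380 (8 UMIs), 22891 and 17406 CPM in this free RNA.

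The uncalled barcodes of 500 to under 2000 UMIs, taken as the free RNA after the files had been seen, gave another picture. Of 9820 genes 2.64% were called higher and 3.82% lower, and of the genes above, 0 of 13 higher and 16 of 53 lower ones were called the same way, and 1 and 9 the opposite way. *Malat1* was higher in low-mt barcodes, at 2623, 11765 and 4205 CPM against 990, 1053 and 1041 (log2 fold change 1.75 ± 0.30, edgeR adjusted p = 2.5e-06). The nuclear RNA *Neat1* (1.60) and *Kcnq1ot1* (2.83) were higher too, and with them 7 of 22 nuclear-retained genes. Against barcodes of 10 to 100 UMIs, the free RNA chosen first, *Malat1* had the opposite sign (-0.92, edgeR adjusted p = 0.13), and 1 of 14 genes of that list was lower with a median of -0.54. *Prom2* was higher, at 65, 486 and 380 CPM against 58, 117 and 169 (0.79 ± 0.24, edgeR adjusted p = 0.026), while *Agr2*, with 1603, 3635 and 3438 CPM in uncalled barcodes, was not called (-0.73, edgeR adjusted p = 0.099).

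With TMM scaling, genes of the respiratory chain fell below this free RNA: 47 of 78 were called lower, with a list median of -0.79. *Atp5e* had 364, 383 and 575 CPM against 387, 781 and 747 (log2 fold change -1.08 ± 0.25, edgeR adjusted p = 0.0019). The fall lay in the male libraries. The summed level of the list in the female library was 15444 CPM in low-mt and 14272 in uncalled barcodes, against 18844 and 25249 in male library 1 and 21704 and 24433 in male library 2. Of 82 ribosomal protein genes 24 were lower, with a median of -0.71. Their summed level was 106946 CPM in low-mt and 99287 in uncalled barcodes of the female library, higher in low-mt barcodes. It was 135724 and 177599 in male library 1 and 160055 and 179247 in male library 2. For both lists these sums, which are not TMM-scaled, fell by less in the male libraries than the medians. *Gm42418* was lower as well, at 12587, 3989 and 4400 CPM against 57524, 23776 and 29884 (-3.07 ± 0.44, edgeR adjusted p = 2.91e-09). *Wfdc18*, *Bpifa2* and *Smr3a* were lower (-2.44, -2.62 and -2.56), the last 2 again in the female library alone. Immediate early genes were higher in 9 of 23 cases and fibroblast markers in 5 of 7. Against barcodes of 10 to 100 UMIs both lists went the other way, with 6 of 20 immediate early genes lower (median -1.11) and 3 of 6 fibroblast markers lower (median -2.24), while the respiratory chain list had a median of 0.09 and 4 of 80 ribosomal protein genes were lower. In the male libraries, low-mt barcodes thus lay between uncalled and high-mt barcodes for *Malat1*, *Prom2* and the respiratory chain list.

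The same genes varied within the low-mt barcodes, along the mitochondrial share that the rule used, and are given as a description. From under 0.1% to 1 to 2% mitochondrial UMIs, *Malat1* went from 901 CPM through 1386 and 2808 to 13339 in the female library. It went from 805 CPM through 2776 and 4466 to 8955 in male library 2. In male library 1 it was 6551 CPM in the lowest band, which holds 9 barcodes, and then 4904, 8526 and 13793. *Prom2* went from 178 to 638 CPM in male library 2, and from 291 to 551 in male library 1. *Lpo* went from 0.0268% to 0.0777% of UMIs in male library 2 and through 0.0282%, 0.0384%, 0.0545% and 0.0413% in the female library, where the third band was the highest. *Malat1* and *Prom2* were highest in the band of 1 to 2% in every library, for *Prom2* of the female library on 2 UMIs.

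Ribosomal protein RNA had the opposite course, from 178561 to 125388 CPM summed in male library 2, from 206144 to 119346 in male library 1 and from 112251 to 80588 in the female library. Markers of other cell types were most frequent at 0.1 to 0.5% mitochondrial UMIs in both male libraries. In male library 2 they reached 3 UMIs in 6 of 282 barcodes under 0.1% (2.13%), in 108 of 262 at 0.1 to 0.5% (41.2%), in 42 of 157 at 0.5 to 1% (26.8%) and in 11 of 154 at 1 to 2% (7.14%). In male library 1 the share was highest in the same band, at 34.3% of 35 barcodes. In the female library it was 8.33%, 8.33%, 18.2% and 20.0% from the lowest to the highest band, on 2 barcodes in each. These are too few to show a course, and a difference from the male libraries was not tested. They were also more frequent in shallow barcodes, with 40.4% and 41.9% of those under 5000 UMIs in the male libraries and 6.03% and 9.92% of those from 10000 UMIs. In the female library the share was 12.5% and 13.0% in these depth bands.

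**Figure D4:**
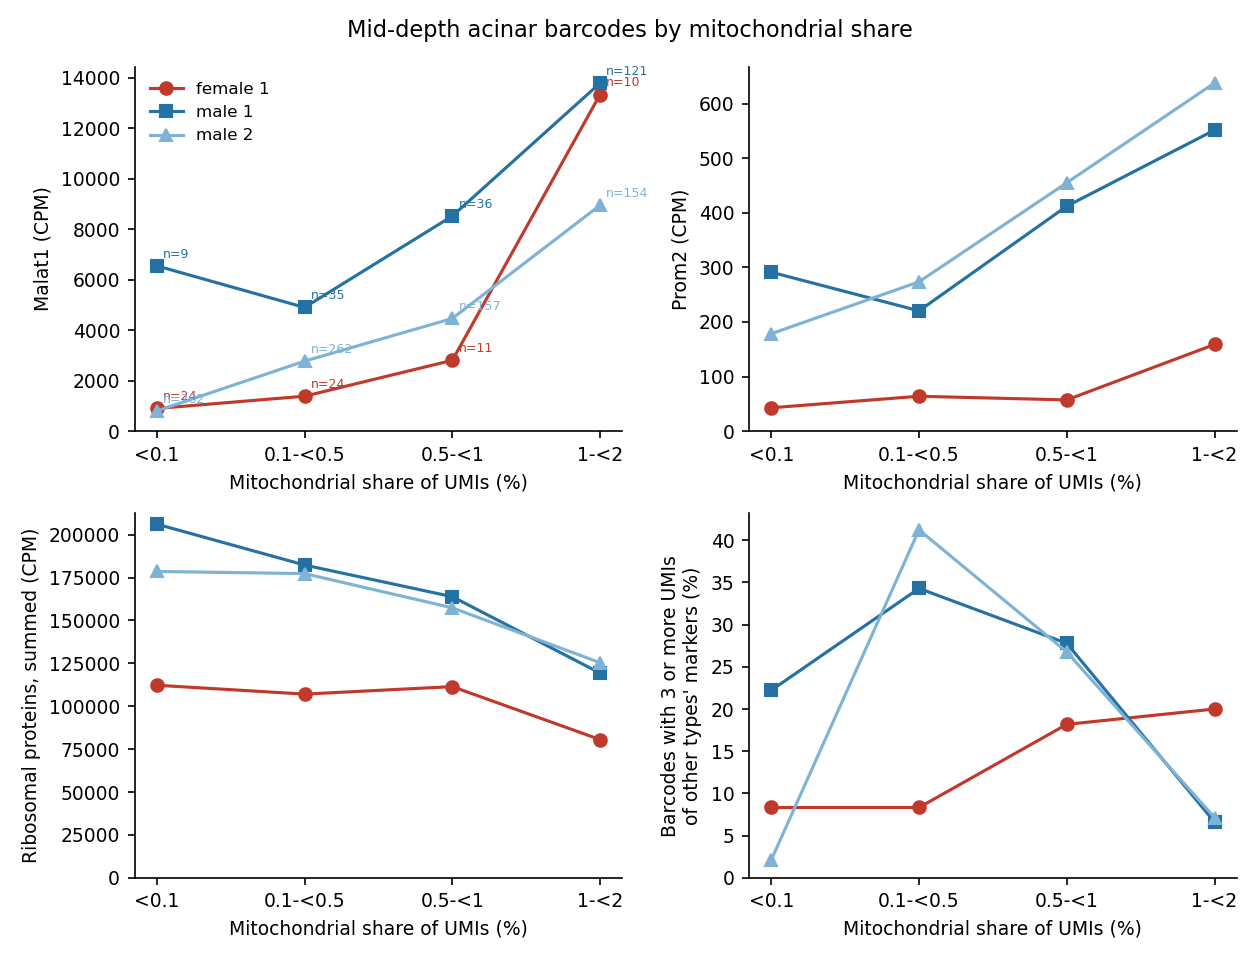
Low-mt barcodes in 4 bands of mitochondrial share (x axis, % of UMIs), 1 line for each library, for *Malat1*, *Prom2* and summed ribosomal protein RNA (CPM over genes outside the rule) and for the percentage of barcodes with 3 or more UMIs of other cell types' markers. *Malat1* is highest in the band of 1 to 2% in each library, ribosomal protein RNA is lowest there, and the other types' markers peak at 0.1 to 0.5% in both male libraries.

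The number of genes per barcode at equal depth was highest in high-mt and lowest in RNA-rich barcodes in each library. Depth was equal in all UMIs, not in those outside tear products. The median tear share had the reverse order, from 76.0%, 78.4% and 79.6% in high-mt to 79.2%, 85.4% and 86.3% in RNA-rich barcodes. Its part in the number of genes was not tested. At 2500 UMIs the median low-mt barcode had 220, 243 and 202 genes, the median high-mt barcode 256, 276 and 260 and the median RNA-rich barcode 174, 196 and 188.5. Without thinning these medians were 457, 694 and 456 genes in low-mt barcodes, 995, 618.5 and 625 in high-mt barcodes and 1742, 1503 and 1296.5 in RNA-rich barcodes, an order in which RNA-rich barcodes came first. In male library 2 the thinned median was 284 genes below 5000 UMIs, 190.5 at 5000 to under 10000 UMIs and 208 from 10000 UMIs.

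The leading genes lie at the following places in GRCm38, the build named in the submitters' processing notes as mm10, by the GENCODE vM21 annotation. *Lpo* is at chr11:87806428-87828289 on the minus strand, *Agr2* at chr12:35992907-36004087 on the plus strand and *Sec61g* at chr11:16500530-16508484 on the minus strand, all protein-coding. *Malat1* is a long noncoding RNA gene at chr19:5795690-5802672 on the minus strand, and *Gm42418* one at chr17:39846958-39848788 on the plus strand.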

How the data were processed

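Droplet 3′ scRNAseq (Chromium v3.1 chemistry) was read from UMI counts per gene and barcode, as deposited by the authors: a matrix of called barcodes and one of all barcodes for each of 3 libraries. The submitters' processing notes name Cell Ranger 6.1.2 and mm10; the annotation release is not given in the sources used here. The study's own removal of ambient RNA and doublets is not in these counts and was not repeated. Called entries were equal in both matrices. Total called UMIs were 63066640 (female library), 40609390 and 44661762 (male libraries 1 and 2); 16, 18 and 12 called barcodes recur between pairs of libraries.

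Counts were summed per library and group after the 108 genes used by the rule (tear products, mitochondrial genes, *Car6*, *Fcgbp*, *Sftpd*, *F5*, *Ccl9*) were removed, and CPM is per 1000000 UMIs of the other genes. Sums were compared with edgeR 4.0.16 (R 4.3.3; filterByExpr, TMM scaling, quasi-likelihood test, Benjamini-Hochberg adjustment over all genes tested, call under 0.05), with the library as a block, since the groups of one library come from one cell suspension. DESeq2 1.42.0 and other settings were alternatives. Tested on simulated counts, edgeR recovered 81% of 4-fold and 4% of 2-fold changes against high-mt barcodes (3679 genes), 67% and 7% against RNA-rich barcodes (7962 genes) and 47% and 4% against free RNA (1086 genes). The simulation gave all genes the same dispersion and included genes of low counts, so these shares need not hold for abundant genes. Changes under 2-fold were called against RNA-rich barcodes, such as *Gabarap* (-0.75) and *Tmem258* (-0.73). Doublets were scored with scrublet (scanpy 1.11.5). Barcodes of highest score, up to 0.8% per 1000 barcodes, were removed in an alternative only. These were 7.79%, 5.14% and 5.53% of all scored barcodes in the 3 libraries, and 5 of 69, 27 of 201 and 151 of 855 members. The share was thus higher among members than among all barcodes in both male libraries.

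Members, gene lists (30) and comparisons were chosen with earlier results of these data known. Named were list genes with their values, the 10 called genes of largest change each way with one direction in 3 of 3 libraries and at least 30 UMIs in each library over both groups, the 20 most abundant tear products, and 10 genes of largest ratio each way between the sexes. A few others (*Neat1*, *Bpifa2*, *Wfdc18*) were chosen after their values were seen. Intervals are 95% Wilson intervals and floors are 3 UMIs; both cover counting error only.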

Additional observations from a re-analysis of the deposited data

Results flagged for a closer look

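Uncalled barcodes lie outside the comparisons of called barcodes, and many met the same limits. Those of 2500 to under 20000 UMIs that satisfied each limit of the rule numbered 2735 (female library), 1386 (male library 1) and 1877 (male library 2). Their median depth was 4247, 3558.5 and 3787 UMIs.

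A few named genes moved one way in the female library and the other way in both male libraries; with 1 female library this difference was not tested. Against high-mt barcodes, the log2 ratio with 1 CPM added was 3.19 for *Itpr3* in the female library, where it rests on 1 UMI against 0, -0.43 for *Srp19*, -0.26 for *Egr1* and -0.26 for *Agr2*, each opposite in sign in the male libraries. Against RNA-rich barcodes it was -0.07 for *Prom2* in the female library and positive in the male libraries.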

How the results depend on the processing

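The counts of calls depended on the processing, and what caused each shift was not tested. Against high-mt barcodes 194 genes were higher and 53 lower. With DESeq2 the counts were 68 and 1, without barcodes holding other cell types' markers 59 and 23, and with cells thinned to 2500 UMIs 87 and 87. At a tear share of 85% or more they were 0 and 0 (DESeq2 was not run there). That setting leaves out the female library and keeps 3 and 4 high-mt barcodes in the male libraries, too few to read the 0 calls. At 5000 to under 10000 UMIs, which leaves out the female library as well, 55 were higher. The lower genes were 607 with total UMIs, 10 without the filter on low counts, 91 with tear genes kept and 127 with high-mt barcodes from 5%. Leaving out each library gave 2 to 448 higher and 0 to 319 lower.

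Against RNA-rich barcodes 302 were higher and 37 lower: 119 and 1 with DESeq2, 136 and 21 without high doublet scores, 2 and 0 at a tear share of 85% or more, 21 and 9 without other types' markers, 61 and 1 with thinned cells and 65 to 324 and 5 to 53 without each library. The lower genes were 2 with total UMIs, 77 with tear genes kept and 220 for members at 0.5% mitochondrial share or more.

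Against free RNA 13 were higher and 53 lower: 5 and 32 with DESeq2, 45 and 25 without the filter, 30 and 85 without high doublet scores, 6 and 32 at a tear share of 85% or more, 43 and 112 without other types' markers, 59 and 313 with barcodes of 2 to 10 UMIs, 259 and 375 with those of 500 to under 2000 UMIs, and 1 to 31 and 6 to 89 without each library. The higher genes were 7 with total UMIs, 37 with tear genes kept and 45 for members at 0.5% or more. Without the block that pairs the groups of a library, the lower genes were 135 against high-mt barcodes, the counts were 58 and 0 against RNA-rich barcodes, and 0 and 7 against free RNA.

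A few genes changed sign. Against high-mt barcodes these were *Rps28* (-0.28 at a tear share of 85%), *Aqp5* (-0.44 with total UMIs) and *Amy1* (-0.50 from 5% mitochondrial). For *Rps28* the high-mt groups held 3 and 4 barcodes. Against RNA-rich barcodes at a tear share of 85% they were *Tmsb10* (-0.068), *Cst3* (-0.76), *Ifitm2* (-0.44), *Cd74* (-0.89), *Gm26917* (-0.38) and *Fosb* (-1.03), and without other types' markers *C1qa* (-0.66), *C1qb* (-1.39), *Col3a1* (-2.37) and *Cd74* (-1.48). With free RNA of 500 to under 2000 UMIs they were *Gm8978* (-0.027), *Eef1g* (-0.40), *Lipo1* (-0.16), *9530002B09Rik* (-0.78), *Wfdc12* (-0.74), *Manf* (-0.50), *Lcmt1* (-0.83), *Agr2* (-0.73), *Bhlha15* (-0.012), *Apoe* (0.0066), *Dcn* (1.47), *Cd74* (0.85), *Cst3* (0.38), *Fos* (0.37) and *Malat1* (1.75). With 3 pools, 2-fold changes were rarely called in data simulated with the same dispersion for all genes, and the 5 female high-mt barcodes limit each comparison with them.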
